A study of Mus musculus with 2 samples.

Results

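The inflammatory and NF-kB early response genes described here are 10 named genes, Il6, Lif, Tnf, Il1b, Cxcl1, Cxcl2, Ccl3, Ccl4, Nfkbia and Zfp36, chosen by symbol among 47069 genes counted in bulk RNA-seq of primary mouse pituitary cells. The donors were randomly cycling C57BL/6 females aged 10 to 12 weeks, whose glands were taken apart by enzymes into single cells. No allele or hormone treatment was named. Each sample pooled 500000 to 700000 cells of 5 pituitaries. Storage followed without delay, for one sample in RNA-Best, a buffer meant to stabilize RNA inside intact single cells, and for the other in RNAlater, the reference reagent, so that each group had 1 library and no comparison has a replicate check. In such pooled cells, fewer cells of a type and less RNA per cell cannot be told apart.

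The members are induced within minutes to hours when a cell senses tissue damage, bacterial products or another cytokine. The signal frees NF-kB, a dimeric transcription factor held in the cytoplasm by IkB proteins, which then switches on cytokine and chemokine genes and, with them, its own inhibitor. Most of the resulting mRNAs are short lived, because AU-rich elements in their 3′ untranslated region (UTR) recruit Zfp36, a protein that brings in the deadenylation machinery. In the pituitary, interleukin-6 and leukaemia inhibitory factor are known as local signals, made among others by folliculostellate cells, that act on corticotropes. Enzymatic dissociation of a tissue is itself known to induce such genes, and both samples went through it.

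Sequences near the start sites are shown because the members are grouped by their link to NF-kB. RefSeq windows (GRCm38.p6) from 250 bases before to 50 bases after the start were matched for 9 of the 10 genes, all but Ccl4. The 60-base stretches below hold, in capitals, each 10-base stretch that on either strand differs by at most 1 base from the NF-kB site of the immunoglobulin κ enhancer, and read 5′ to 3′ along the gene.
Il6, chr5:30013045-30013104, plus strand: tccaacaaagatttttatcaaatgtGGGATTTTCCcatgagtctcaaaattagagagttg
Cxcl1, chr5:90891149-90891208, plus strand: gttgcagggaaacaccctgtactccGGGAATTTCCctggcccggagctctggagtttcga
Cxcl2, chr5:90903777-90903836, plus strand: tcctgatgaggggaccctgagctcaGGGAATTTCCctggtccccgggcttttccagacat
Nfkbia, upstream match, chr12:55492792-55492851, minus strand: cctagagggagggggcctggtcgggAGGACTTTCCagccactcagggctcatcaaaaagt
Nfkbia, match near the start, chr12:55492642-55492701, minus strand: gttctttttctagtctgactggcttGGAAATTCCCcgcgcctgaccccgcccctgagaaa

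The neighbouring chemokine genes Cxcl1 and Cxcl2 carried the same 10 letters, beginning 71 and 97 bases before their start sites. The match of Il6 began 44 bases before the start, and those of Nfkbia 179 and 29 bases before it. Such a match was present in 4 of the 9 member windows (44.4%) and in 2.72% of all 32851 windows. The looser pattern of GGG and CC with 5 bases of any kind between them, on either strand, was present in 7 of the 9 (77.8%) and in 50.8% of all windows, so it is common by itself. A window with several or overlapping matches was counted as 1. Lif, Tnf and Zfp36 matched only the looser pattern, and Il1b and Ccl3 matched neither in this window.

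All 10 members held the pentamer found in AU-rich elements, and 6 of 10 held a longer form of it. The pentamer AUUUA, written ATTTA in the transcript sequences of GENCODE M21 (GRCm38), occurred at least 2 times in the 3′ UTR of each of the 10 members, against 48.7% of the 13637 tested genes with a 3′ UTR sequence. The median density was 9.59 pentamers per kb of 3′ UTR in the members and 1.28 in the tested genes. The longer form TTATTTATT was present in 6 of 10 members (60%) and in 7.68% of the tested genes. The stretches of 30 bases below are those with most pentamers, in capitals, for 9 of the 10 genes.
Tnf, chr17:35199678-35199707, minus strand: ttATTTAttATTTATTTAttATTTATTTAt
Il1b, chr2:129364802-129364831, minus strand: cttacctATTTATTTAtgtATTTAttgatt
Cxcl1, chr5:90892606-90892635, plus strand: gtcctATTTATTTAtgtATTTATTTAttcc
Cxcl2, chr5:90905327-90905356, plus strand: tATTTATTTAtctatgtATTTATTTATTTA
Il6, chr5:30019684-30019713, plus strand: atttttaATTTAttgataATTTAaataagt
Lif, chr11:4272414-4272443, plus strand: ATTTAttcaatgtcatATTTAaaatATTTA
Ccl3, chr11:83648075-83648104, minus strand: ttgaaattttATTTAATTTAatcctattgg
Nfkbia, chr12:55489608-55489637, minus strand: aggaccacgttttATTTAttgtgcttttga
Zfp36, chr7:28376958-28376987, minus strand: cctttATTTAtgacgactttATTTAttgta

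The 3′ UTR of Cxcl2 held 11 pentamers in 734 bases, the most of the 10 genes, and that of Tnf 8 in 764 bases. Lif had the longest 3′ UTR, 3180 bases, with 7 pentamers, which is 2.20 per kb and the lowest density among the members. Zfp36, whose mRNA is known to be a target of its own protein, had 3 pentamers in 774 bases. Ccl4 and Nfkbia had 2 each.

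All 10 genes were detected in both libraries with at least 1376 counts, and all passed the filter of a mean of 1 CPM (counts scaled to the same library total). Where a pair of values follows a gene, RNA-Best comes first and RNAlater second, and a value in parentheses after a pair is the log2 ratio. The library totals were 53915047 in RNA-Best and 44917492 in RNAlater. Together the members summed to 1671 CPM (RNA-Best) and 2289 CPM (RNAlater). Whole counts stood in both libraries for 7 of 10, while the values of Lif, Nfkbia and Zfp36 held fractions of reads. Exons of Zfp36 overlap by 125 bases those of an antisense gene, Gm44710, and exons of Il1b overlap by 25 bases those of Il1bos, with 16 counts of its own (RNA-Best) and 0 (RNAlater). The strand setting of the counting was not stated, so within these shared bases reads of Il1b and Zfp36 and of their antisense partners cannot be told apart.

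**Figure D1:**
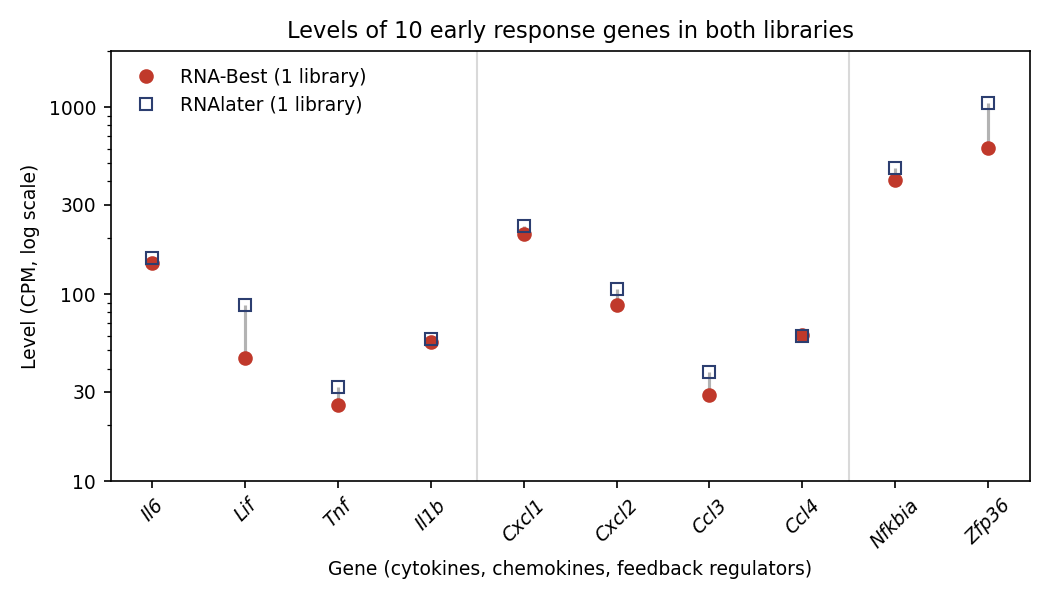
Level of each gene in CPM on a log axis in the RNA-Best library (filled circles) and the RNAlater library (open squares), with a grey line joining the values of a gene and vertical lines separating cytokines, chemokines and feedback regulators. The gap is widest for Lif (45.4 and 87.3 CPM) and Zfp36 (606 and 1046 CPM), and the symbols of Ccl4 and Il1b nearly coincide.

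Levels of different genes were compared as TPM (as CPM, but with counts first divided by the length of the longest annotated transcript). TPM were compared within a library only. Between the libraries they can differ from CPM, as for Ccl4, with 120 and 143 TPM but 60.7 and 59.8 CPM. In RNAlater, the feedback genes led, with Zfp36 at 591 TPM and Nfkbia at 472 TPM. They were followed by the chemokines Cxcl1 at 195 TPM and Ccl4 at 143 TPM and the cytokine Il6 at 105 TPM. Lower levels were those of Cxcl2 (81.2 TPM), Ccl3 (79.1), Il1b (66.6), Lif (34.2) and Tnf (30.8). Zfp36 thus lay within the top 0.945% of the tested genes in RNAlater, and Tnf, the lowest member, within the top 20.0%. The counting intervals of neighbours overlapped only for Cxcl2 and Ccl3.

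By this length, the order in RNA-Best differed at both ends. Nfkbia led with 335 TPM, above Zfp36 with 282 TPM, and Lif was last with 14.7 TPM, below Tnf with 20.3 TPM. In between lay Cxcl1 (145 TPM), Ccl4 (120), Il6 (81.7), Cxcl2 (54.7), Il1b (53.0) and Ccl3 (48.7), where the intervals of Cxcl2 and Il1b, and of Il1b and Ccl3, overlapped. A longest transcript can be one that the cells do not make: those of Cxcl1 and Cxcl2 hold a single unspliced exon. By the principal coding transcript, a length chosen after the data were seen, the levels in RNAlater were 429 TPM for Cxcl1, 241 TPM for Il6 and 169 TPM for Cxcl2, and Zfp36 (661 TPM) again stood above Nfkbia (529 TPM). In RNA-Best this length gave 399 TPM for Nfkbia, 339 TPM for Cxcl1 and 337 TPM for Zfp36, so Cxcl1 and Zfp36 were nearly level. The order of Zfp36 and Nfkbia in RNAlater depended on the length too. They had 596 and 581 TPM with the union of exons, but 406 and 423 TPM with the median length of the annotated transcripts, which put Nfkbia first. Cxcl1 came next after them, and Lif and then Tnf came last, in RNAlater with each of the 4 lengths.

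The study compared the reagents to see whether RNA-Best keeps transcript levels. Most members differed little between the libraries, and Lif and Zfp36 stood apart. Lif was counted at 45.4 CPM (RNA-Best) and 87.3 CPM (RNAlater), and Zfp36 at 606 and 1046 CPM, which makes them 1.91-fold and 1.73-fold lower in RNA-Best. The other 8 members had log2 ratios between -0.42 and 0.02. No member reached a 2-fold difference in either direction, where 4.99% of the 16504 tested genes were at least 2-fold lower and 0.273% at least 2-fold higher.

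The log2 ratio (RNA-Best over RNAlater) had a median of -0.25 for the members and -0.18 for all tested genes. Log2 ratios were taken after adding 0.5 CPM, and intervals are 95% counting intervals, which cover neither biological nor library-preparation spread. Below 0 lay 9 of 10 members and 67.0% of all tested genes, and the counting interval lay wholly below 0 for 8 of 10 members and 51.2% of all tested genes. Since the median of all genes moved from -0.18 to -0.014 under TMM scaling and to -0.0030 under DESeq2 size factors, members were also placed relative to it, and the ratios of Il6, Il1b and Cxcl1 turned positive under both scalings. Below the median of all genes lay 6 of 10 members (Lif, Zfp36, Ccl3, Tnf, Cxcl2 and Nfkbia), against 50.0% by construction. The counting interval lay wholly below this median for the same 6 members (35.7% of all tested genes) and wholly above it for Il6, Il1b and Ccl4 (34.2%).

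**Figure D2:**
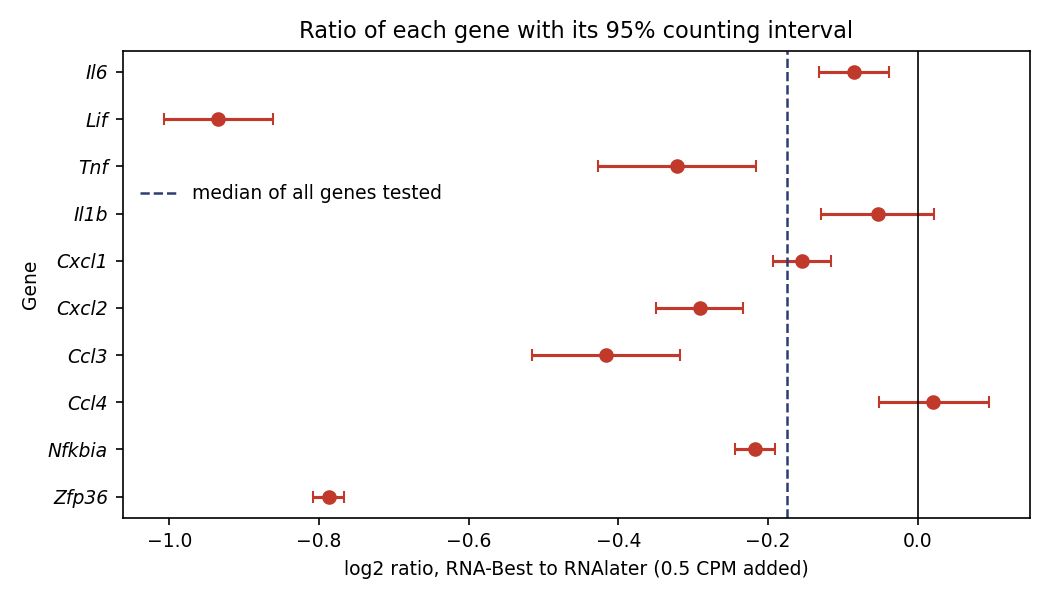
Log2 ratio of RNA-Best to RNAlater for each gene (points) with its 95% counting interval (bars); the solid line marks 0 and the dashed line the median of all tested genes, -0.18. Lif at -0.93 and Zfp36 at -0.79 lie far left of the other 8 genes, which run from -0.42 to 0.02.

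Among the cytokines, Lif and Il6 belong to the same family, whose members signal through the shared receptor chain gp130. Il6 (ENSMUSG00000025746.11, chromosome 5, 30013114-30019981, 5 exons) had 7937 counts (RNA-Best) and 7017 counts (RNAlater), that is 147 and 156 CPM. Its log2 ratio was -0.09 (interval -0.13 to -0.04), which lay 0.09 above the median of all genes and turned positive under TMM, DESeq2 and the total without the 2 most abundant genes. Lif (ENSMUSG00000034394.14, chromosome 11, 4257557-4272514, 4 exons) had 2449.5 and 3921.5 counts. Its log2 ratio was -0.93 (-1.01 to -0.86), and 6.16% of tested genes had a lower ratio.
Il6 and Lif thus differed in relation to each other. The count ratio of Il6 to Lif, which no scaling can alter, was 3.24 in RNA-Best and 1.79 in RNAlater, a log2 difference of 0.86 (0.77 to 0.94). It still holds any effect of length, as the longest transcript has 2343 bases for Il6 and 4026 for Lif. Relative to the length trend described below, Il6 lay at -0.0084 and Lif at -0.64. With the principal coding transcript these distances were -0.25 and -0.58, so the gap was smaller.

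Tnf and Il1b encode tumour necrosis factor and interleukin-1β, which are made above all by macrophages and which themselves activate NF-kB in their target cells. Tnf (ENSMUSG00000024401.14, chromosome 17, 35199381-35202007, 4 exons) had the fewest counts, 1376 and 1438, or 25.5 CPM (RNA-Best) and 32.0 CPM (RNAlater). Its log2 ratio was -0.32 (-0.43 to -0.22). Il1b (ENSMUSG00000027398.13, chromosome 2, 129364570-129371139, 7 exons) was nearly level at 55.3 and 57.4 CPM, with a log2 ratio of -0.05 whose interval of -0.13 to 0.02 held 0.
Relative to Tnf, Il1b was therefore higher in RNA-Best, with count ratios of 2.16 and 1.79 and a log2 difference of 0.27 (0.14 to 0.40). The ratio of Il1b to Il1rn, which encodes the natural antagonist of the interleukin-1 receptor, was 4.47 in RNA-Best and 4.29 in RNAlater, a difference within counting error (log2 0.06, interval -0.12 to 0.24).

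Cxcl1 and Cxcl2 attract neutrophils through the receptor Cxcr2 and lie next to each other on chromosome 5. Cxcl1 (ENSMUSG00000029380.11, 90891241-90893115, 4 exons) had 208 CPM (RNA-Best) and 232 CPM (RNAlater), and Cxcl2 (ENSMUSG00000058427.10, 90903871-90905938, 4 exons) had 87.0 and 107 CPM. The log2 ratio was -0.15 (-0.19 to -0.12) for Cxcl1, which turned positive under TMM and DESeq2 size factors, and -0.29 (-0.35 to -0.23) for Cxcl2, which did not. The pair did not keep a fixed proportion. The count ratio of Cxcl1 to Cxcl2 was 2.40 in RNA-Best and 2.18 in RNAlater, a log2 difference of 0.14 (0.07 to 0.21).

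Ccl3 and Ccl4, which encode the macrophage inflammatory proteins 1α and 1β and attract monocytes and lymphocytes, lie side by side on chromosome 11. Ccl3 (ENSMUSG00000000982.5, 83647844-83649355, 3 exons) had 28.7 CPM (RNA-Best) and 38.5 CPM (RNAlater), with a log2 ratio of -0.42 (-0.52 to -0.32). Ccl4 (ENSMUSG00000018930.3, 83662584-83664683, 3 exons) had 60.7 and 59.8 CPM, with a log2 ratio of 0.02 (-0.05 to 0.09), the only positive one of the 10. This neighbouring pair differed more than the Cxcl pair. The count ratio of Ccl4 to Ccl3 was 2.11 in RNA-Best and 1.55 in RNAlater, a log2 difference of 0.44 (0.32 to 0.57).

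The feedback genes limit the response. Nfkbia (ENSMUSG00000021025.7, chromosome 12, 55489410-55492647, 6 exons) encodes IkBα, the inhibitor that NF-kB induces against itself, and had 407 CPM (RNA-Best) and 473 CPM (RNAlater). Its log2 ratio of -0.22 (-0.24 to -0.19) was close to the median of all genes. Zfp36 (ENSMUSG00000044786.5, chromosome 7, 28376784-28380253, 2 exons) encodes the mRNA decay factor tristetraprolin and was the most abundant member by CPM, the 98th gene of RNA-Best and the 52nd of RNAlater. Its log2 ratio was -0.79 (-0.81 to -0.77).
By counts Zfp36 was the higher in both libraries. The count ratio of Nfkbia to Zfp36, which needs no scaling, was 0.671 in RNA-Best and 0.452 in RNAlater. That is a log2 difference of 0.57 (0.54 to 0.60). It still holds any effect of length, as the longest transcript has 1578 bases for Nfkbia and 2790 for Zfp36. The listed paralogs of Zfp36 were lower in RNA-Best as well, Zfp36l1 at 42.6 and 81.4 CPM (-0.93) and Zfp36l2 at 101 and 165 CPM (-0.72).

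Transcript length moves with the ratio in these libraries, where long transcripts were lower in RNA-Best, so each member was set against genes of like length. The members have short transcripts, with a median longest transcript of 1755 bases. All 10 lay below the length trend (a LOWESS curve of the log2 ratio on the longest transcript), as did 48.9% of all 16443 genes with a length, and Il6 did so by 0.0084, less than its counting error. With the length of the principal coding transcript, again all 10 lay below the trend, against 49.0% of 13810 genes, and Il6 lay 0.25 below it.
The distance was greatest for Zfp36 (-0.65), Ccl3 (-0.64) and Lif (-0.64). Among genes of 2-3 kb, whose median log2 ratio was -0.09, 2.38% had a lower ratio than Zfp36. Among genes of up to 1 kb, whose median was 0.28, 3.78% had a lower ratio than Ccl3, and among those of 4-6 kb, with a median of -0.40, 7.71% had a lower ratio than Lif. Ccl3 thus lay lower among genes of its length than among all genes, where 29.0% had a lower ratio.

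**Figure D3:**
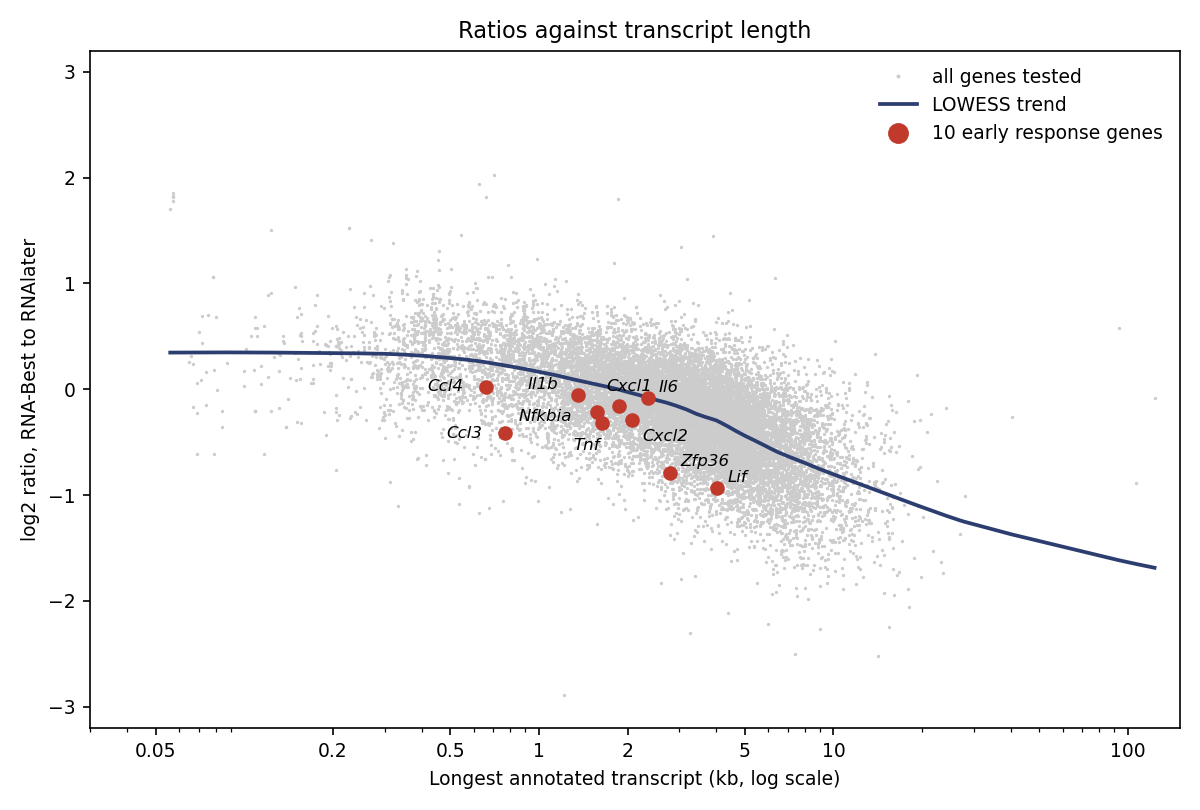
Log2 ratio of RNA-Best to RNAlater against the longest annotated transcript in kb (log axis) for all tested genes with a length (grey), their LOWESS trend (line) and the 10 early response genes (red). Each red point lies on or under the line, Il6 almost on it, and Zfp36, Ccl3 and Lif 0.64 to 0.65 below it.

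The receptors of these ligands were measured from a list of 16 genes, of which 11 passed the filter. Below the median of all genes lay 9 of the 11, and none was 2-fold lower (background 4.99%). Il6st, the gp130 chain that serves both Il6 and Lif, was the most abundant and the lowest, at 120 CPM (RNA-Best) and 231 CPM (RNAlater), with a log2 ratio of -0.93 (-0.98 to -0.89). Il6ra, the chain specific to interleukin-6, had 15.5 and 27.9 CPM (-0.83), and Lifr, the chain that binds Lif, 22.5 and 38.4 CPM (-0.76).
All 3 chains of this receptor system were thus lower in RNA-Best, but they are encoded by long transcripts and lay only 0.20 and 0.09 below and 0.03 above the length trend. The receptors for Tnf and interleukin-1 were Tnfrsf1a at 102 and 120 CPM (-0.24) and Il1r1 at 26.5 and 31.2 CPM (-0.23). Ccr1 had the highest ratio of the list, 0.19, with an interval of -0.21 to 0.58. The receptors of Cxcl1 and Cxcl2 were close to absent, with 3 and 8 counts for Cxcr2 and 0 of Cxcr1 in both libraries, which allows up to 0.0556 CPM (RNA-Best) and 0.0668 CPM (RNAlater).

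Most genes of NF-kB itself had lower ratios than their target Nfkbia. Of 10 genes for NF-kB subunits and IkB proteins other than Nfkbia, 9 lay below the median of all genes and 2 were at least 2-fold lower (background 4.99%). The list median was -0.61, and 8 of 10 lay below the length trend. Nfkb1, which encodes the p50 precursor, had 78.0 CPM (RNA-Best) and 172 CPM (RNAlater), with a log2 ratio of -1.13 (-1.19 to -1.08), and Nfkb2 had 24.6 and 49.7 CPM. Rela, the transactivating p65 subunit, had 47.8 and 70.7 CPM (-0.56), and Nfkbiz, an atypical IkB protein and the most abundant of the list, 131 and 212 CPM (-0.69).
Nfkbib, encoding IkBβ, was the exception at 27.1 and 26.0 CPM, with a log2 ratio of 0.06 (-0.05 to 0.17). The count ratio of Nfkbia to Nfkb1 was 5.22 in RNA-Best and 2.75 in RNAlater, a log2 difference of 0.92 (0.86 to 0.98). Nfkb1 has the longer transcript, and relative to the length trend the genes lay closer, Nfkb1 at -0.82 and Nfkbia at -0.26. By this distance Rel (0.04), Relb (-0.16) and Nfkbib (0.09) lay above Nfkbia and the rest of the list below it.

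The adaptors and kinases that lead to NF-kB were closer to the middle of all genes. Of 17 genes, 14 lay below the median of all genes, none was 2-fold lower, and the list median was -0.33, with 10 of 17 below the length trend. Their ends were Tab2 (-0.79) and Tradd (0.27), and the most abundant was Irak1 at 136 and 166 CPM (-0.28). Of 9 listed inhibitors of the pathway, 8 lay below the median of all genes, with a list median of -0.45, and 7 of 9 below the length trend. Tnfaip3, which encodes the ubiquitin-editing enzyme A20 and is like Nfkbia a classical NF-kB target, had 110 CPM (RNA-Best) and 193 CPM (RNAlater). Its log2 ratio was -0.81 (-0.85 to -0.76), but its longest transcript has 6199 bases. Relative to the length trend these genes lay close, Tnfaip3 at -0.24 and Nfkbia at -0.26. The ends of the list were N4bp1 (-0.88) and the deubiquitinase Otulin (0.36).

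Other NF-kB target genes had a lower list median than the members. Of 22 such genes 19 passed the filter, 16 of these lay below the median of all genes, and 3 were at least 2-fold lower (background 4.99%). The list median was -0.43, and 16 of 19 lay below the length trend. Their median distance from that trend was -0.49, and that of the members -0.26. A place below the trend was thus not particular to the members. The inducible nitric oxide synthase Nos2 had the lowest ratio, with 34 counts in RNA-Best and 115 in RNAlater (-1.44, interval -1.78 to -1.07). The monocyte chemokine Ccl7 had the highest, at 12.7 and 9.31 CPM (0.43), and the transcription factor Irf1 was the most abundant, at 233 and 347 CPM (-0.58). Both directions thus occurred among chemokines.

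**Figure D4:**
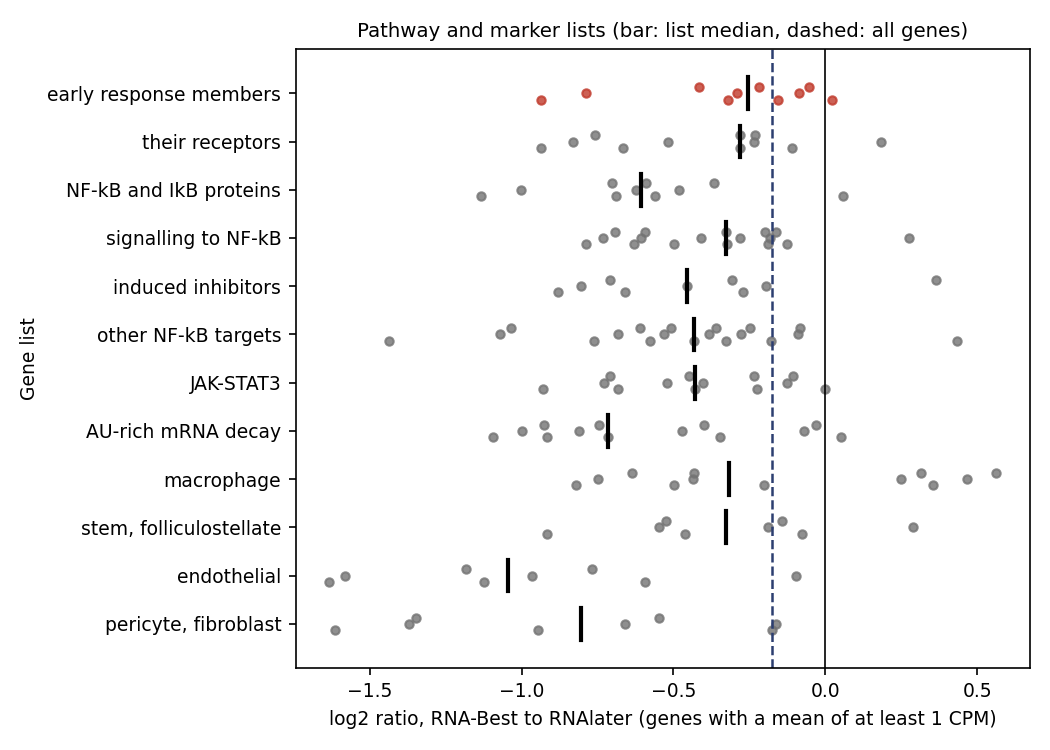
Log2 ratios of single genes (points) with a mean of at least 1 CPM in the early response members (red) and in pathway and marker lists (grey); black bars are list medians, the solid line is 0 and the dashed line the median of all tested genes. The members' median of -0.25 lies close to the dashed line, that of NF-kB and IkB proteins at -0.61 and that of endothelial markers at -1.05 further left.

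The pathways on which the members act were listed too. Of 13 genes of JAK-STAT3 signalling, through which Il6 and Lif act, 10 lay below the median of all genes. The list median was -0.43, but 8 of 13 lay below the length trend. Stat3 was lowest at 180 CPM (RNA-Best) and 343 CPM (RNAlater) (-0.93), Socs1 highest at 14.7 CPM in both (-0.0025), and Junb most abundant at 1687 and 1842 CPM (-0.13). Socs3, the feedback inhibitor of gp130 signalling, had 606 and 802 CPM (-0.40). Of 13 genes of AU-rich mRNA decay and stabilization, 10 lay below the median of all genes, with a list median of -0.72, but 7 of 13 below the length trend. Their ends were Tnrc6a (-1.10) and the deadenylase Cnot7 (0.05).

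Markers of the cell types that can make these mRNAs were read beside the members. All 8 pituitary endocrine markers were present, with log2 ratios from 0.04 (Gh) to 0.73 (Tshb), where 67.0% of all tested genes lay below 0. Most have short transcripts, with a median longest transcript of 969 bases, and 1 of 8 lay below the length trend. Of 12 macrophage markers, 7 lay below the median of all genes, and their summed level was 235 CPM (RNA-Best) and 226 CPM (RNAlater), with a range of log2 ratios from -0.82 (Cx3cr1) to 0.56 (C1qa). Tnf, Il1b, Ccl3 and Ccl4 together had 0.725 times the summed counts of these markers in RNA-Best and 0.830 times in RNAlater. That is a log2 difference of -0.19 (-0.25 to -0.14), whose direction depends on the markers summed. Much of the sum came from C1qa (58.7 and 39.5 CPM), C1qb (51.3 and 40.0) and C1qc (31.8 and 26.6), all higher in RNA-Best. Of the 12 markers, 7 had a log2 ratio below 0 and 5 above, and 6 lay below the length trend.
The neutrophil markers summed to 5.23 and 7.20 CPM, with Elane and Mpo at 0 in both libraries, and the lymphocyte markers to 5.79 and 9.86 CPM, none at 0 in both. Endothelial markers were lower in RNA-Best, 7 of 8 below the median of all genes (50.0% of all tested genes) and 386 against 769 CPM in sum, and so were pericyte and fibroblast markers, 6 of 8 and 522 against 679 CPM. Of the stem and folliculostellate markers 5 of 8 lay below this median, close to the background, with 156 against 195 CPM in sum and log2 ratios from -0.92 (Sox9) to 0.29 (Mia). Below the length trend lay 6 of these 8, with a median distance of -0.42, against 48.9% of all genes with a length. So did 8 of 8 endothelial markers and 7 of 8 pericyte and fibroblast markers. The endothelial, pericyte and fibroblast markers moved in the same direction as Lif and Zfp36, and their part in the ratios of the members was not tested.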

How the data were processed

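Poly(A) RNA of dissociated mouse pituitary cells was measured in 2 libraries, grouped by the stabilizer in the labels. Per the labels, reads were aligned with STAR 2.5.1b to mm10 and counted with featureCounts 1.5.0-p1. The authors deposited 1 table of estimated counts, not normalized, for 47069 Ensembl genes. Among values above 0, 35.4% in RNA-Best and 34.9% in RNAlater were fractions, from an option that was not stated, so the counts of overlapping or repeated genes are uncertain. Symbols, lengths and sequences came from GENCODE M21 on GRCm38 (46488 identifiers matched, 98.8%) and promoter windows from RefSeq.

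Counts were scaled to CPM by library total, and log2 ratios were taken after adding 0.5 CPM, over genes whose mean reached 1 CPM. The members were named by symbol, and further genes by rule: the ends and most abundant gene of each list, and partners of the members, of which 1 is not reported here. Members, lists and rules were chosen with earlier results of these data known. With 1 library per group the linear model of the study could not be fitted and no p-value is given. Ratio intervals (95%) were exact conditional binomial intervals on rounded counts, those of count ratios used the normal approximation of the log odds, and those of TPM were exact Poisson intervals. All cover counting error only, as reads copied by PCR are not independent. A count of 0 allows up to 3 counts. Length trends used LOWESS (span 0.2) in statsmodels 0.14.6 with Python 3.11.15, and scaling factors edgeR 4.0.16 and DESeq2 1.42.0 in R 4.3.3 on rounded counts. The steps were tested on simulated data. Scaling, pseudocount, filter, reference genes, total count, length trend and, for TPM, transcript length were varied.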

Additional observations from a re-analysis of the deposited data

How the results depend on the processing

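No paired analysis was possible because either stabilizer was used for a single library, and for the same reason no replicate could be left out. The list median relative to all genes, -0.079, and the 6 members below the median of all genes changed by less than counting error or 1.5-fold under TMM, DESeq2 size factors, the total without the 2 most abundant genes, pseudocounts of 0.1 and 2 CPM, a filter at 10 CPM and thinning to the same total count. The relative median moved to -0.19 with no filter and to -0.030 with protein-coding genes as the reference, since other genes then set the centre. It moved to -0.27 with the trend on the longest transcript removed and to -0.37 with that on the principal coding transcript, a length added after the data were seen, and the count of members below the median to 10 in both. No member was 2-fold lower under any setting tried. Under TMM, DESeq2 and the total without the 2 most abundant genes, the log2 ratio of Il6 became 0.087, 0.099 and 0.042, and that of Cxcl1 became 0.018 and 0.030 under TMM and DESeq2, since these scalings shift all ratios up. Between libraries of these depths, counting error is small for all 10 genes, and what is missing is replication.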

Other observations

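The AU-rich form TTATTTATT was compared with the ratio of RNA-Best to RNAlater across all genes, since it occurs in 6 of the 10 members. Over all tested genes, the median log2 ratio was -0.35 for the 1048 genes with this form in the 3′ UTR and -0.21 for the 12589 without. Within the 7 classes of principal coding transcript length, the median with the form was lower in the 4 classes up to 4 kb: 0.23 against 0.31 at up to 1 kb (8 genes with the form), 0.04 against 0.07 at 1-2 kb (88), -0.16 against -0.13 at 2-3 kb (144) and -0.278 against -0.277 at 3-4 kb (189). It was higher in the 3 longer classes: -0.41 against -0.46 at 4-6 kb (307), -0.62 against -0.70 at 6-10 kb (227) and -0.80 against -0.98 over 10 kb (85). These are descriptions over genes of 1 pair of libraries, without a test.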
